A study of Rattus norvegicus with 48 samples.

Results

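Brain cortex taken 48 h after an oral dose of 3 mg/kg of the nitramine explosive RDX was compared with cortex from the 0 h group of the same dose arm. Members were chosen by title alone, as the 3 cortex arrays labelled 3 mg, 48 h and the 3 labelled 3 mg, 0 h, so 6 of the 48 arrays in the series enter the contrast. The other 18 cortex arrays (3 mg/kg at 4 and 24 h, and 18 mg/kg at 0, 4, 24 and 48 h) were used to estimate the spread between arrays and for comparisons where these are named. All animals were male Sprague-Dawley rats, housed in pairs, that swallowed pure RDX once in a gel capsule at a dose chosen to stay below seizure. The 0 h group therefore belongs to the dosed design, and the labels give no capsule-only arm at 48 h. Nor do they tie the arrays to separate animals or give a clock time of collection, so p-values measure only the spread between arrays. Each array is an Affymetrix rat genome array, and every level below is a deposited log2 expression value of a probe set, the set of short probes that together measure a transcript. On that scale a difference of 1 is a 2-fold difference.

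RDX binds the GABA type A receptor at the picrotoxin site and blocks the chloride current through it, and at high doses the loss of inhibition causes seizures. When cortical neurons fire, calcium entry and the kinases ERK and CaMK act on the transcription factors CREB and SRF. Within minutes these switch on immediate early genes, among them those of the Fos, Egr and Nr4a families and the synaptic gene Arc. Their transcripts decay quickly, so a tissue sample reports the activity of the period just before it was taken.

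The 6 arrays carried the transcripts of cortical tissue. Snap25, a synaptic fusion protein of all neurons, lay between 13.06 and 13.42, and Slc17a7, the vesicular glutamate transporter of cortical excitatory neurons, lay between 8.03 and 9.96. In bulk tissue, fewer cells of a type and less RNA per cell cannot be told apart. The state of the RNA was read from control probe sets at the 3' and 5' ends of actin and GAPDH transcripts. A wider 3' minus 5' gap means that fewer labelled copies reached the 5' end. The actin gap was 3.18, 3.60 and 1.88 in the 0 h arrays and 2.11, 2.19 and 2.73 in the 48 h arrays. The GAPDH gap was 2.08, 2.92 and 1.0 at 0 h and 1.09, 1.11 and 1.35 at 48 h. Replicates 1 and 2 at 0 h thus had the widest gaps for both transcripts, and replicate 3 at 0 h had the narrowest. The 48 h group was lower by 0.55 for actin (means 2.34 ± 0.34 and 2.89 ± 0.90, SD, n = 3 each) and by 0.82 for GAPDH. The exact permutation p was 0.40 for both, and 3 arrays against 3 cannot give less than 0.1.

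**Figure D1:**
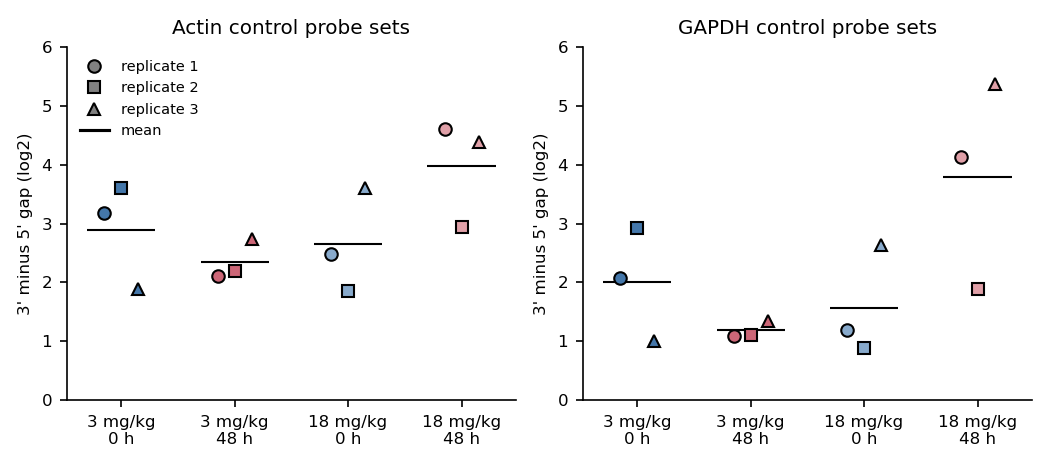
Gap of the control probe sets, 3' end minus 5' end (log2 difference, vertical axis), for actin (left) and GAPDH (right) in the 0 h and 48 h arrays of both dose arms. Each symbol is an array and each line the mean of 3. In the 3 mg/kg arm the 0 h mean of 2.89 for actin exceeds the 48 h mean of 2.34, and in the 18 mg/kg arm the 48 h mean is the higher for both transcripts, although the groups overlap.

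Transcripts of liver cells were also present at uneven levels. Alb, which encodes serum albumin and is made by hepatocytes, read 7.88, 8.07 and 9.25 at 0 h and 12.19, 9.01 and 7.48 at 48 h. Replicate 1 at 48 h was thus far above the other 5 arrays. The mean of 15 hepatocyte transcripts was 5.61, 5.50 and 5.79 at 0 h and 7.66, 5.70 and 5.39 at 48 h, with an exact permutation p of 0.80. Of these 15, 14 lay above 0 in the contrast with a median of 0.52, which was -0.12 without replicate 1 at 48 h. The part of RNA integrity and of liver transcripts in the differences below was not tested, but values fitted with the actin gap as a covariate are given beside the main groups.

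No transcript passed the threshold between 48 and 0 h. Of 31042 probe sets, 0 (0%) had an adjusted p under 0.05 in limma, and the smallest adjusted p was 0.14. At an unadjusted p under 0.05 there were 4026 (13%). In 3062 (9.86%) all 3 arrays at 48 h lay above all 3 at 0 h, and in 3338 (10.8%) all lay below. When each of 14217 genes was represented by its brightest probe set, 1435 (10.1%) were higher and 710 (4.99%) lower at that limit. Counted by gene, the groups did not overlap with 48 h higher in 1915 (13.5%) and with 48 h lower in 1155 (8.12%). The middle 90% of log2 differences ran from -0.39 to 0.44, with a median standard error (SE) of 0.13, and 237 probe sets differed by more than 1. Among the genes without overlap, 62.2% had replicate 3 at 0 h as the 0 h array nearest to the 48 h mean. The same share over all genes was not computed.

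The count depended on which arrays were used and on their weights. Without replicate 3 at 0 h, 4 probe sets passed, and with the 6 contrasted arrays alone 3 passed. When limma gave each array a weight from its own scatter, 5796 passed, of which 3042 were higher and 2754 lower. Those weights were 2.32, 0.82 and 0.43 for the 0 h arrays, so replicate 3 counted least. A gene-by-gene version of the same weighting gave 5252. Differences below are therefore given as measured values with their SE and adjusted p, and no gene is called changed.

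Immediate early transcription factors lay lower at 48 h. Of 24 measured, 19 were below 0 and 5 above, with a median of -0.18 beside 0.01 over all genes. In 7 of the 24 (29.2%, against 8.12% of all genes) all 48 h arrays were below all 0 h arrays. In 1 (4.17%, against 13.5%) all were above. Of the 7, Fosl2 and Atf3 were dim, with means of 5.1 and 4.4 over the 24 cortex arrays. The median was -0.18 with the actin gap in the model, and it stayed below 0 in all 20 alternatives, from -0.35 to -0.16.

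Egr1 and Egr2 encode zinc-finger proteins that are induced through SRF sites in their own promoters. Those promoters are shown because both genes are among the 7 and because the sites can be read directly. Capitals mark the CArG box, the motif that SRF binds, searched in the 250 bases upstream of the RefSeq start in GRCr8; the motif reads alike on both strands. The first line is chr18:26736828-26737077 on the plus strand and the second is chr20:21054442-21054691 on the minus strand, each written 5′ to 3′ along its gene.
Egr1: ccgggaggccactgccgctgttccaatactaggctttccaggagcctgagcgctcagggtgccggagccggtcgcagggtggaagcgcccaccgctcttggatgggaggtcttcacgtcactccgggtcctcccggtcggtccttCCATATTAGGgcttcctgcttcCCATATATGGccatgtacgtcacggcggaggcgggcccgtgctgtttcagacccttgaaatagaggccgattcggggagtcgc
Egr2: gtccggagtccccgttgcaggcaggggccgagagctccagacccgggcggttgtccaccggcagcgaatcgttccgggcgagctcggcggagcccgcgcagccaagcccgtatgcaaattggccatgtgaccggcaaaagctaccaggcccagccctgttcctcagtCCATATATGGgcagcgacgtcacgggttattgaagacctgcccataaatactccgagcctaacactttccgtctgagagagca
In both genes a CArG box of identical letters ended 74 bases upstream of the start, and Egr1 held another that ended 96 bases upstream. Of 33469 rat promoters of this length, 501 (1.5%) held a CArG box, as did 4 of the 45 listed activity genes with a promoter entry (Dusp5, Egr1, Egr2 and Klf6). This motif was chosen after the sequences were seen. The Egr1 box farther from the start has the letters of the classic serum response element, which 10 promoters (0.0299%) held. The cyclic AMP response element TGACGTCA, bound by CREB, was present in 10 of the 45 and in 531 promoters (1.59%). The E-box CACGTG was present in 8 of the 45 and in 1872 promoters (5.59%), and the AP-1 site TGACTCA in 1 of the 45, Dusp14, and in 1354 promoters (4.05%). The listed genes were counted once each if any of their promoter entries matched, whereas the 33469 are single entries. The 2 counts are therefore not on the same unit. A match describes these letters and is not evidence of binding.

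Egr1 read 11.99, 11.98 and 12.12 in the 0 h arrays and 11.23, 11.17 and 11.61 in the 48 h arrays. The groups did not overlap, and the 48 h mean was lower by 0.69 (log2 difference -0.69, SE 0.17, adjusted p = 0.28). Egr2 read 7.98, 8.39 and 8.28 at 0 h and 6.70, 6.05 and 7.31 at 48 h. Its difference was -1.53 (SE 0.53, adjusted p = 0.30), although a second Egr2 probe set gave 0.06. Replicate 3 was the highest 48 h array for both Egr genes.

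Nr4a3, an orphan nuclear receptor induced by activity, read 8.63, 8.94 and 8.26 at 0 h. At 48 h its 3 arrays lay within 0.02 of each other, at 7.60, 7.59 and 7.58. The difference of -1.02 (SE 0.19, adjusted p = 0.18) came from the brightest of 3 probe sets, which ranged from -1.02 to -0.05. Ier5, a regulator of the heat shock factor HSF1 and itself an immediate early gene, read 10.38, 10.35 and 10.36 at 0 h and 9.80, 9.87 and 9.99 at 48 h. This difference of -0.47 (SE 0.15, adjusted p = 0.29) was large beside the scatter of the 0 h arrays, whose SD was 0.01, but the 3 probe sets of Ier5 ranged from -0.47 to 0.12. Fos, the classic marker of recent firing, read 8.38, 9.21 and 8.80 at 0 h and 6.81, 7.69 and 8.93 at 48 h. Its groups overlapped, because replicate 3 at 48 h was above 2 of the 0 h arrays (difference -0.98, SE 0.56, adjusted p = 0.44). A second Fos probe set gave -0.13.

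Products that immediate early programmes act through were more evenly divided. Of 30 activity-induced effectors, 18 were below 0 and 12 above, with a median of -0.05. In 3 (10%, against 8.12% of all genes) the groups did not overlap with 48 h lower, and in 1 (3.33%, against 13.5%) with 48 h higher. Arc, whose protein removes AMPA receptors from synapses, read 8.68, 9.20 and 9.04 at 0 h and 7.16, 7.41 and 8.69 at 48 h. Replicate 3 at 48 h just reached the lowest 0 h array, and the difference was -1.21 (SE 0.43, adjusted p = 0.31). Rgs4, which shortens G protein signals, read between 12.18 and 12.21 at 0 h and 11.77, 12.09 and 12.11 at 48 h, a difference of -0.21 (SE 0.08, adjusted p = 0.34). Bdnf, the neurotrophin that activity induces in cortex, differed by only -0.03 (SE 0.24, adjusted p = 0.96), with both groups between 7.48 and 7.88.

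**Figure D2:**
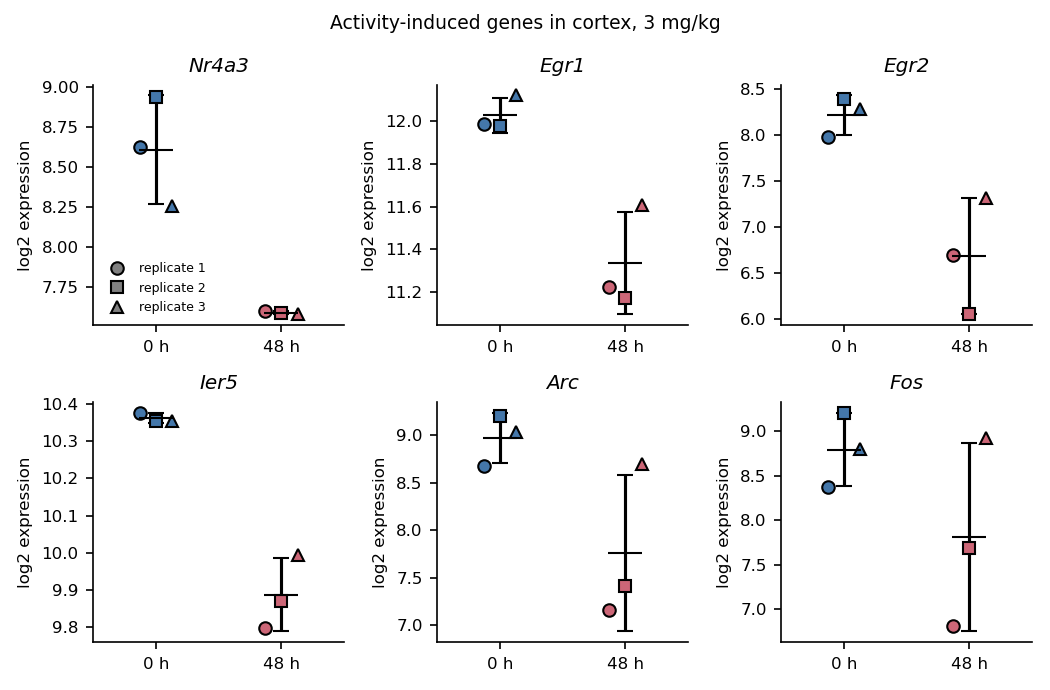
Log2 expression (vertical axes, scaled to each gene) of 6 activity-induced genes at 0 and 48 h after 3 mg/kg, with each array as a symbol and the mean ± SD of 3 arrays as lines. Nr4a3, Egr1, Egr2 and Ier5 do not overlap between the groups, while replicate 3 at 48 h brings Arc and Fos into the range of the 0 h arrays.

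The receptor that RDX blocks showed no common direction. Of 13 GABA type A receptor subunits measured, 7 were above 0 and 6 below, with a median of 0.02, and in 3 (23.1%, against 8.12% of all genes) the 48 h arrays were all lower. Gabra5, the subunit of extrasynaptic receptors that carry tonic inhibition, read 9.72, 9.77 and 9.65 at 0 h and 9.40, 9.55 and 9.58 at 48 h, a small difference of -0.20 (SE 0.11, adjusted p = 0.42). Gabrd, which also forms extrasynaptic receptors, differed by -0.34 (SE 0.15, adjusted p = 0.35) with overlap, replicate 3 at 48 h (10.03) lying above replicate 3 at 0 h (9.99).

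Genes that make, carry and anchor GABA were lower more often than higher, at 11 of 16 with a median of -0.09. Gabbr2, the signalling subunit of the metabotropic GABA type B receptor, read 12.30, 12.36 and 11.90 at 0 h and 11.54, 11.59 and 11.61 at 48 h. The arrays did not overlap, and the difference was -0.60 (SE 0.18, adjusted p = 0.28), with a second probe set at 0.08. Gad1, which synthesises GABA, differed by -0.13 (SE 0.11, adjusted p = 0.57), with a second probe set at 0.36.

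Excitatory receptors and ion channels were split in the same way. Of 22 glutamate receptor genes, 14 were below 0 and 8 above, with a median of -0.06. The kainate receptor subunits went apart. Grik2 was higher at 48 h (7.29, 7.43 and 7.27 against 7.67, 7.82 and 7.72, difference 0.41, SE 0.14, adjusted p = 0.30), whereas Grik1 was lower by 0.41 (log2 difference -0.41, SE 0.18, adjusted p = 0.36) at a level near the dim end of the scale.

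Sodium channel subunits, which carry the rising phase of the action potential, were 4 above and 4 below 0. Scn2a, the alpha subunit of excitatory axons, read 11.15, 11.36 and 11.28 at 0 h and 10.90, 10.79 and 11.07 at 48 h. Its difference of -0.34 had a small error (SE 0.09, adjusted p = 0.28). Scn2b, a beta subunit that controls channel surface density, read 12.04, 12.39 and 11.37 at 0 h and 10.89, 10.99 and 11.35 at 48 h. Its groups were barely separate, since replicate 3 at 0 h lay 0.01 above replicate 3 at 48 h (difference -0.85, SE 0.25, adjusted p = 0.28). Its second probe set gave 0.13.

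Of 24 potassium, calcium and HCN channel genes, 14 were below 0 and 10 above. In 5 (20.8%, against 8.12% of all genes) all 48 h arrays were lower, and in 1 (4.17%, against 13.5%) all were higher. Kcnq5, a subunit of the M-current channel that restrains repetitive firing, read 10.66, 10.86 and 10.41 at 0 h and 10.28, 10.24 and 10.29 at 48 h. Its difference was -0.37 (SE 0.11, adjusted p = 0.28), and with replicate 3 alone as the 0 h array it was -0.14. The 3 Kcnq5 probe sets ranged from -0.37 to -0.07.

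Genes of synaptic vesicles and exocytosis lay lower, in 17 of 23 with a median of -0.18. In 10 of the 23 (43.5%, against 8.12% of all genes) all 48 h arrays were below all 0 h arrays. In 0 (0%, against 13.5%) were all above. The median was -0.14 with the actin gap in the model, and below 0 in all 20 alternatives (-0.23 to -0.07). Snap25 itself read 13.42, 13.30 and 13.36 at 0 h and 13.17, 13.06 and 13.17 at 48 h, a difference of -0.23 (SE 0.08, adjusted p = 0.29). Syt4, a synaptotagmin of dense-core vesicles, read 11.11, 11.08 and 11.12 at 0 h and 10.69, 10.92 and 10.92 at 48 h (difference -0.26, SE 0.09, adjusted p = 0.31). Both were thus lower by little and with tight 0 h groups.

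Syn1, which tethers vesicles to the cytoskeleton, read 11.84, 11.58 and 11.25 at 0 h and 10.64, 10.78 and 11.06 at 48 h, a difference of -0.73 (SE 0.29, adjusted p = 0.33). Cplx2, a complexin that clamps vesicle fusion, had a larger difference of -1.64 (SE 0.74, adjusted p = 0.37). Its 0 h arrays were split, at 8.65, 8.84 and 6.92, and the 48 h arrays at 6.27, 6.57 and 6.65 lay close to the third of these. Measured from replicate 3 at 0 h alone, the Cplx2 difference was -0.43.

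Markers of neuron classes were mixed for pyramidal cells and mostly higher for interneurons. Of 17 pyramidal neuron markers, 9 were above 0 and 8 below. Foxp2, a transcription factor of deep-layer neurons that is also strong in striatum, read 7.52, 7.66 and 7.52 at 0 h and 8.63, 8.39 and 8.08 at 48 h, a difference of 0.80 (SE 0.24, adjusted p = 0.28). Cux2, of upper-layer neurons, differed by -0.75 (SE 0.31, adjusted p = 0.34) and replicate 3 read 8.21 at both times. Its second probe set gave -0.03. Slc17a7 read 8.13, 8.03 and 9.94 at 0 h and 9.40, 9.79 and 9.96 at 48 h. Its difference of 1.01 (SE 0.52, adjusted p = 0.40) came from the 2 low 0 h arrays, those with the wide gaps, and was -0.23 measured from replicate 3. The other Slc17a7 probe set gave 0.04.

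Of 15 interneuron neuropeptides and markers, 10 were above 0, with a median of 0.20, and in 4 (26.7%, against 13.5% of all genes) all 48 h arrays were higher. The median was 0.06 against the 0 h arrays of the 18 mg/kg arm and 0.10 among arrays with an actin gap of at most 3. Calb2, the calcium-binding protein calretinin, read 7.96, 7.88 and 7.85 at 0 h and 8.36, 8.43 and 8.38 at 48 h, a difference of 0.50 (SE 0.16, adjusted p = 0.29). Sst, the neuropeptide somatostatin, read 10.36, 10.56 and 10.77 at 0 h and 11.06, 11.57 and 11.33 at 48 h (difference 0.75, SE 0.29, adjusted p = 0.33). Neither overlapped between the groups.

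Striatal markers were higher in 12 of 15 genes, with a median of 0.50, and in 5 of them (33.3%, against 13.5% of all genes) all 48 h arrays were above all 0 h arrays. Tac1, the precursor of substance P, read 8.54, 8.25 and 7.62 at 0 h and 9.82, 9.05 and 9.40 at 48 h (difference 1.29, SE 0.35, adjusted p = 0.28). Adcy5, the adenylyl cyclase of striatal projection neurons, read 7.82, 7.53 and 7.50 against 8.50, 8.23 and 8.49 (difference 0.79, SE 0.24, adjusted p = 0.28), with a second probe set at -0.02. Penk, the enkephalin precursor, differed by 0.63 (SE 0.22, adjusted p = 0.31).

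The striatal list also separated the 0 h arrays from each other. Its mean was 8.88, 8.78 and 7.77 at 0 h and 9.16, 8.57 and 8.93 at 48 h, so replicate 3 at 0 h was the lowest of the 6 arrays. The median difference was 0.16 without that array. Against the 0 h arrays of the 18 mg/kg arm it was -0.14, that is, of the other sign. How much of each dissection was striatum was not tested.

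Glial and vascular lists had medians between -0.12 and 0.12, although single genes differed by more. Of 13 astrocyte markers, 7 were below 0 and 6 above (highest 0.27), with a median of -0.12. In 3 (23.1%, against 8.12% of all genes) all 48 h arrays were lower. The 3 named next had the smallest p of the list and were all lower. Gfap, the intermediate filament of astrocytes, read 11.78, 11.57 and 11.57 at 0 h and 10.84, 10.79 and 11.31 at 48 h, without overlap (difference -0.67, SE 0.28, adjusted p = 0.35). Gja1, the gap junction protein connexin 43, differed by -0.26 (SE 0.10, adjusted p = 0.34), and Atp1b2, the astrocytic beta subunit of the sodium pump, by -0.74 (SE 0.33, adjusted p = 0.36). Other probe sets reached 0.43 for Gja1 and 0.01 for Atp1b2. Of 17 oligodendrocyte and myelin genes, 11 were below 0 with a median of -0.03. Cldn11, a tight junction protein of myelin, had the smallest p among them at -0.27 (SE 0.09, adjusted p = 0.30).

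Microglia markers were above 0 in 11 of 17, with a median of 0.12, and in 5 (29.4%, against 13.5% of all genes) all 48 h arrays were higher. The median was 0.03 among arrays with an actin gap of at most 3. Tyrobp, the adaptor of TREM2, read 6.81, 6.74 and 6.83 at 0 h and 7.08, 7.24 and 7.02 at 48 h, a difference of 0.32 (SE 0.08, adjusted p = 0.28). The complement subunit C1qc read 7.75, 7.41 and 7.75 against 7.99, 7.96 and 8.03 (0.35, SE 0.11, adjusted p = 0.28). C1qa differed by 0.62 (SE 0.22, adjusted p = 0.31) but by 0.07 from replicate 3 at 0 h alone. Of 18 endothelial and mural markers, 10 were below 0 and 8 above. In 4 (22.2%, against 8.12% of all genes) all 48 h arrays were lower, and in 2 (11.1%, against 13.5%) all were higher. The receptor Tie1 was lower (difference -0.63, SE 0.20, adjusted p = 0.29) and the adhesion molecule Pecam1 higher (0.27, SE 0.09, adjusted p = 0.29), so these endothelial genes did not share a direction. Of 10 choroid plexus markers 5 were above 0. In 3 (30%, against 8.12% of all genes) all 48 h arrays were lower, and in 0 (0%, against 13.5%) all were higher. Of 6 blood cell transcripts 4 were above 0. In 2 (33.3%, against 13.5%) all 48 h arrays were higher, and in 1 (16.7%, against 8.12%) all were lower.

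Genes of protein synthesis and respiration lay higher at 48 h, with the largest shares, among the 28 lists, of genes whose 48 h arrays were all higher. Of 42 cytosolic ribosomal protein genes measured, 38 were above 0, with a median of 0.23, and in 24 (57.1%, against 13.5% of all genes) all 48 h arrays lay above all 0 h arrays. Of 63 oxidative phosphorylation subunits, 57 were above 0, with a median of 0.25, and in 28 (44.4%) the groups did not overlap. In 0 genes of either list were all 48 h arrays lower, against 8.12% of all genes. Proteasome subunits were 18 of 30 above 0, with a median of 0.17. In 6 (20%, against 13.5% of all genes) all 48 h arrays were higher, and in 2 (6.67%, against 8.12%) all were lower.

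Ndufv3, Ndufa7 and Ndufa2 encode subunits of respiratory complex I. Ndufv3 read 10.71, 10.41 and 10.60 at 0 h and 11.02, 11.32 and 11.12 at 48 h (difference 0.58, SE 0.13, adjusted p = 0.28), with a second probe set at -0.21. Ndufa7 read 10.88, 10.73 and 11.10 against 11.47, 11.65 and 11.43 (0.61, SE 0.15, adjusted p = 0.28). Ndufa2 gave 0.53 (SE 0.14, adjusted p = 0.28). In all 3 genes the lowest array was replicate 2 at 0 h, the array with the widest gaps.

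Rps15, of the small ribosomal subunit, read 12.06, 11.61 and 12.16 at 0 h and 12.35, 12.70 and 12.56 at 48 h (difference 0.60, SE 0.17, adjusted p = 0.28). Rpl37a, of the large subunit, read 11.60, 11.47 and 11.81 against 11.99, 12.00 and 11.92 (0.34, SE 0.10, adjusted p = 0.28). Psmb3, a proteasome core subunit, gave 0.46 (SE 0.11, adjusted p = 0.28). These genes had their lowest value in replicate 2 at 0 h as well.

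The size of these list differences moved with the RNA measure and with the choice of 0 h array. With the actin gap in the model the medians were 0.16 for ribosomal proteins, 0.17 for oxidative phosphorylation and 0.08 for the proteasome, beside 0.01 over all genes. Measured from replicate 3 at 0 h alone, the array with the narrowest gaps, they were 0.09, 0.12 and 0.00, so the proteasome difference was not seen there. The medians of the ribosomal and oxidative phosphorylation lists were above 0 in all 20 alternatives.

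**Figure D3:**
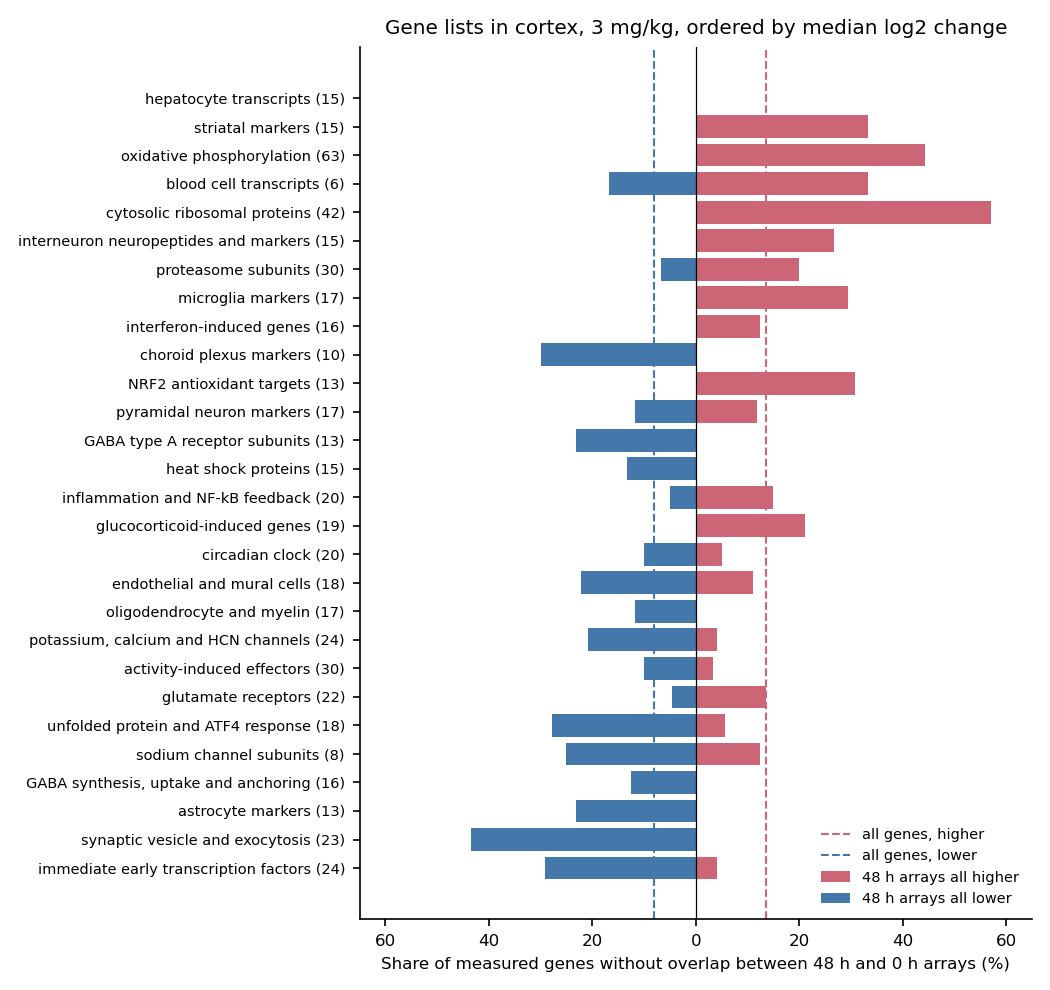
Share of the measured genes of each list whose 3 arrays at 48 h all lay above (right, red) or all below (left, blue) the 3 arrays at 0 h, in percent, with list sizes in brackets and lists ordered by median log2 difference. Dashed lines give the same shares over all 14217 genes, 13.5% higher and 8.12% lower. Cytosolic ribosomal proteins (57.1%) and oxidative phosphorylation (44.4%) extend farthest to the right, and synaptic vesicle genes (43.5%) farthest to the left.

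Stress, immune and daily-rhythm lists had medians between -0.06 and 0.11, although single genes differed by more. NRF2 targets, which defend against electrophiles and oxidants, were above 0 in 11 of 13, with a median of 0.09, and in 4 (30.8%, against 13.5% of all genes) all 48 h arrays were higher. Me1, which supplies NADPH, read 9.40, 9.26 and 9.55 at 0 h and 9.92, 10.07 and 9.75 at 48 h (difference 0.51, SE 0.13, adjusted p = 0.28). Gclc, the catalytic subunit that starts glutathione synthesis, gave 0.34 (SE 0.13, adjusted p = 0.33). Of 15 heat shock protein genes 8 were above 0, and of 18 genes of the unfolded protein and ATF4 response 7 were, with a median of -0.06. In 5 of those 18 (27.8%, against 8.12% of all genes) all 48 h arrays were lower, and in 1 (5.56%, against 13.5%) all were higher. Inflammation and NF-kB feedback genes were 10 of 20 above 0, and interferon-induced genes were 12 of 16 with a median of 0.11.

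Clock genes were 10 above and 10 below 0. Dbp, a clock output factor with a steep daily rhythm, read 8.50, 8.35 and 8.59 at 0 h and 9.00, 8.54 and 8.86 at 48 h (difference 0.32, SE 0.18, adjusted p = 0.44). Nr1d1 and Nr1d2, the Rev-erb repressors, gave 0.20 (SE 0.13, adjusted p = 0.48) and 0.33 (SE 0.14, adjusted p = 0.34). Glucocorticoid-induced genes were 9 of 19 above 0 with a median of 0.00. In 4 of the 19 (21.1%, against 13.5% of all genes) all 48 h arrays were higher, and in 0 (0%, against 8.12%) all were lower. Sgk1, a kinase of this list that responds strongly to corticosterone, differed by -0.09 (SE 0.16, adjusted p = 0.81). Pdk4, which shuts pyruvate out of mitochondria, was higher without overlap (5.53, 5.62 and 5.64 against 6.27, 6.26 and 5.93, difference 0.56, SE 0.22, adjusted p = 0.34), at a dim level. Its second probe set gave 0.10.

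Some of the smallest p-values belonged to genes with modest differences and tight groups. Atg7, the enzyme that activates ubiquitin-like proteins in autophagy, read 7.16, 7.15 and 7.09 at 0 h and 7.80, 7.96 and 7.63 at 48 h, a difference of 0.66 (SE 0.11, adjusted p = 0.14). Its 3 probe sets ranged from -0.07 to 0.66, so they did not agree. Gstm4, a glutathione transferase, read 7.21, 7.17 and 7.28 against 7.86, 7.87 and 7.97 (0.68, SE 0.12, adjusted p = 0.17). Mrpl57, a protein of the mitochondrial ribosome, read 9.70, 9.46 and 9.56 against 9.99, 10.21 and 10.05 (0.51, SE 0.09, adjusted p = 0.17), and its second probe set gave 0.63.

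Car3, the cytosolic carbonic anhydrase III of muscle, liver and fat, had the largest difference of all genes. It read 5.68, 5.61 and 6.43 at 0 h and 9.24, 9.31 and 9.27 at 48 h, a difference of 3.37 (SE 1.37, adjusted p = 0.34), or 10.3-fold on the linear scale. Its second probe set gave 1.11. The 48 h arrays were nearly equal, while Alb in the same arrays ran from 12.19 down to 7.48. In the 48 h arrays of the 18 mg/kg arm, Car3 read 6.14, 10.63 and 11.07 and Alb 7.23, 13.94 and 14.02. The part of liver transcripts in Car3 was not tested. In the other 18 cortex arrays, which enter the SE, Car3 ran from 5.75 to 11.07 with a median of 7.28. Fitted on the 6 contrasted arrays alone, both Car3 probe sets passed (adjusted p = 0.0095 and 0.044). Other high genes were Cdhr1, a photoreceptor and olfactory cadherin (1.28, SE 0.41, adjusted p = 0.29), Scand1, a SCAN-domain protein (1.35, SE 0.49, adjusted p = 0.32), and Ubl5, a splicing-associated ubiquitin-like protein (1.15, SE 0.46, adjusted p = 0.34). For Scand1 and Ubl5 replicate 3 at 0 h again lay nearest to the 48 h arrays, and the differences from it were 0.36 and 0.30. The 3 Ubl5 probe sets ranged from 0.27 to 1.15.

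Among low genes, Kif5c, a kinesin that drives axonal transport, read 9.51, 9.61 and 6.24 at 0 h and 5.55, 5.84 and 5.62 at 48 h. Nfix, a nuclear factor I protein, read 8.38, 8.01 and 5.98 at 0 h and 5.62, 5.69 and 5.58 at 48 h. Both had replicate 3 at 0 h beside the 48 h arrays, as Cplx2 did. Their differences were -2.78 (SE 1.27, adjusted p = 0.37) and -1.83 (SE 0.85, adjusted p = 0.38), and from that array alone -0.57 and -0.35. Other Kif5c probe sets reached 0.26, and the other Nfix probe set gave -0.32.

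Pgk1, a glycolytic kinase, followed another pattern. It read 12.50, 12.44 and 12.38 at 0 h and 12.12, 10.81 and 10.82 at 48 h, so 2 of the 48 h arrays were low (difference -1.19, SE 0.47, adjusted p = 0.34). Its 3 probe sets ranged from -1.19 to -0.07. Usp27x, a deubiquitinase, read 8.27, 8.74 and 7.72 against 7.05, 6.94 and 7.31 (-1.14, SE 0.26, adjusted p = 0.28). Etv4, an ETS factor of growth factor signalling, gave -1.10 (SE 0.33, adjusted p = 0.28), and the synaptic adhesion protein Tenm2 gave -1.05 (SE 0.48, adjusted p = 0.37). The second Etv4 probe set gave -0.23, and the 3 Tenm2 probe sets ranged from -1.05 to -0.16.

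**Figure D4:**
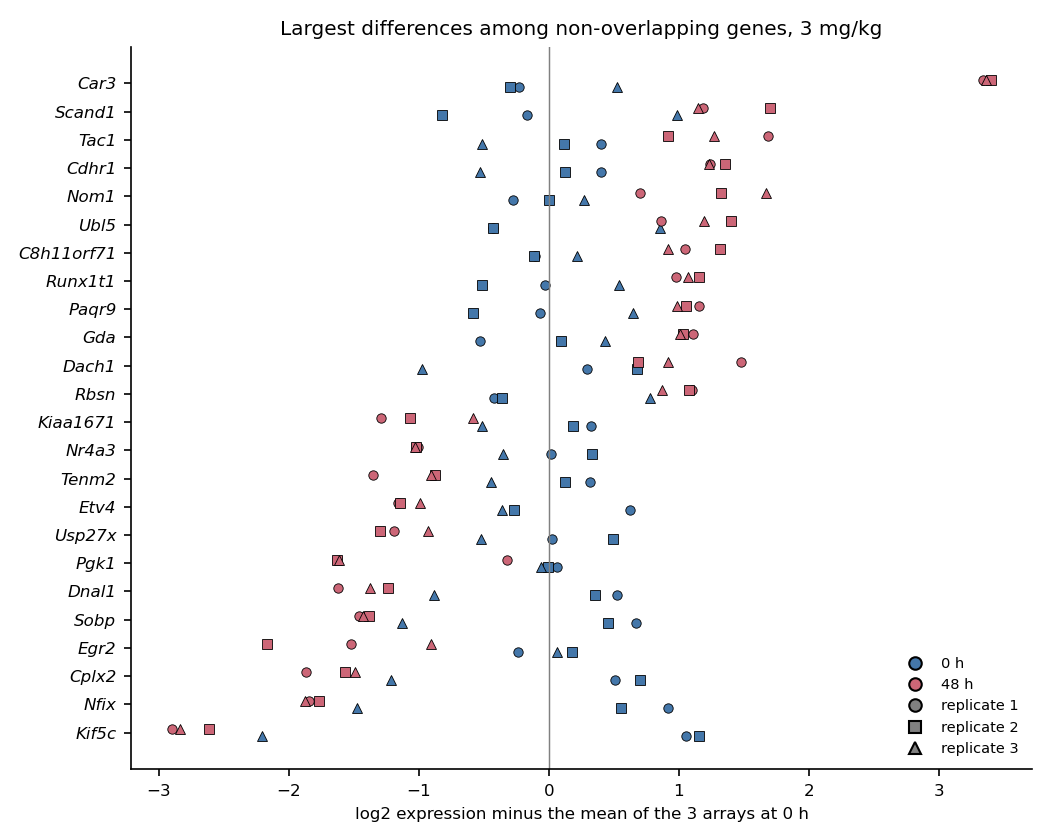
The 12 highest and 12 lowest genes by log2 difference among those with a mean of at least 6, an unadjusted p under 0.05 and no overlap between 48 and 0 h, with each array plotted as log2 expression minus the mean of the 0 h arrays (horizontal axis). Blue is 0 h, red is 48 h and the symbol is the replicate. Car3 stands apart at 3.37, and in Kif5c, Nfix and Cplx2 replicate 3 at 0 h (blue triangle) sits beside the 48 h arrays.

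The 48 h arrays were also compared with the earlier times of the same dose arm. Set against the mean of the 4 and 24 h groups, 0 of 31042 probe sets (0%) passed in limma. At an unadjusted p under 0.05 there were 759, beside 4026 for 48 against 0 h. Recovery of true differences was not simulated for this contrast, so the 0 does not show that the times were alike. This test uses no 0 h array. The differences at 4, 24 and 48 h share the 0 h arrays and are given only side by side. For Egr1 they were -0.18, -0.63 and -0.69, for Egr2 -1.12, -1.51 and -1.53, and for Nr4a3 -0.83, -0.94 and -1.02. For Arc they were -1.44, -1.16 and -1.21, and for Fos -0.97, -0.88 and -0.98, so these genes were below the 0 h group at each time. The medians over immediate early factors were -0.10, -0.14 and -0.18.

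Dbp ran the other way in time, at 1.16, 0.79 and 0.32, and Calb2 at 0.31, 0.99 and 0.50. The Calb2 difference at 24 h passed (adjusted p = 0.029), unlike that at 48 h. Atg7 was at 0.38, 0.38 and 0.66. The medians were 0.11, 0.25 and 0.23 for ribosomal proteins and 0.12, 0.26 and 0.25 for oxidative phosphorylation, and striatal markers were at 0.68, 0.92 and 0.50.

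The 48 h difference was then set against the same difference in the 18 mg/kg arm, which shares no array with it. Across 14217 genes the 2 sets of differences were inversely related (Pearson r = -0.27, Spearman rho = -0.39, genes not being independent), and 414 genes were without overlap in both arms in opposite directions against 107 in the same direction. The difference between the arms passed in 529 probe sets (1.7%), 214 higher and 315 lower at the high dose. By the brightest probe set of each gene, 345 genes passed, 111 higher (0.781%) and 234 lower (1.65%), and all 345 had opposite signs in the 2 arms, as choosing genes on the difference between arms favours. Of all 14217 genes 8706 had opposite signs.

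RNA integrity also went opposite ways in the 2 arms. From 0 to 48 h the actin gap was lower by 0.55 at 3 mg/kg but higher by 1.33 at 18 mg/kg (exact permutation p = 0.40 and 0.20), and the GAPDH gap was lower by 0.82 and higher by 2.23 (0.40 and 0.20). With either gap in the model, 0 probe sets passed. The count of 529 also turned on single arrays. Without 0 h replicates 1, 2 and 3 of the 3 mg/kg arm it was 17, 0 and 3443, and without its 48 h replicates 99, 0 and 3. Without 0 h replicates 1, 2 and 3 of the 18 mg/kg arm it was 2, 2 and 3780, and without its 48 h replicates 141, 4239 and 3. With the 12 arrays of these 4 groups alone, 0 passed.

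Ribosomal proteins and respiratory subunits were on opposite sides in the 2 arms. At 18 mg/kg the medians were -0.15 and -0.22, with 33 of 42 and 55 of 63 genes below 0, beside 6976 of all 14217 genes. The difference between arms passed, lower at the high dose, in 4 of the 42 and 11 of the 63, beside 234 of 14217 (1.65%). Ndufa7 was at 0.61 and -0.44 (difference -1.05, SE 0.21, adjusted p = 0.030), and Rps15 at 0.60 and -0.50 (-1.09, SE 0.24, adjusted p = 0.035). Scn2a was lower at 3 mg/kg and higher at 18 mg/kg, where its arrays read 10.91, 10.82 and 11.06 at 0 h and 11.50, 11.54 and 11.61 at 48 h. Its difference between the arms was 0.96 (SE 0.13, adjusted p = 0.014). All 8 sodium channel subunits were above 0 at 18 mg/kg, beside 7241 of all 14217 genes, with a median of 0.14. Several were close to 0, such as Scn1a (0.01), Scn8a (0.01) and Scn3b (0.08).

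Immediate early factors mostly lay below 0 in both arms. At 18 mg/kg 21 of 24 were below 0, with a median of -0.27, and 4 of the 24 had opposite signs in the 2 arms. Among effectors 25 of 30 were below 0 at 18 mg/kg, with a median of -0.23, but 15 of the 30 had opposite signs, beside 8706 of all 14217 genes. Egr1 read 11.98, 12.01 and 11.84 at 0 h and 11.24, 11.29 and 11.31 at 48 h in that arm, a difference of -0.66 (SE 0.17, adjusted p = 0.10), beside -0.69 at 3 mg/kg. Egr2 was at -1.90 and Fos at -1.99 there, each with an adjusted p of 0.11, and Arc at -1.66 (adjusted p = 0.10). The differences between the arms were 0.03 (SE 0.24) for Egr1, -0.37 (SE 0.74) for Egr2, -0.45 (SE 0.61) for Arc and -1.01 (SE 0.79) for Fos, with adjusted p of 0.96, 0.81, 0.71 and 0.47. These misses do not show that the doses acted alike, since errors of 0.61 and more leave room for large differences in Egr2, Arc and Fos.

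**Figure D5:**
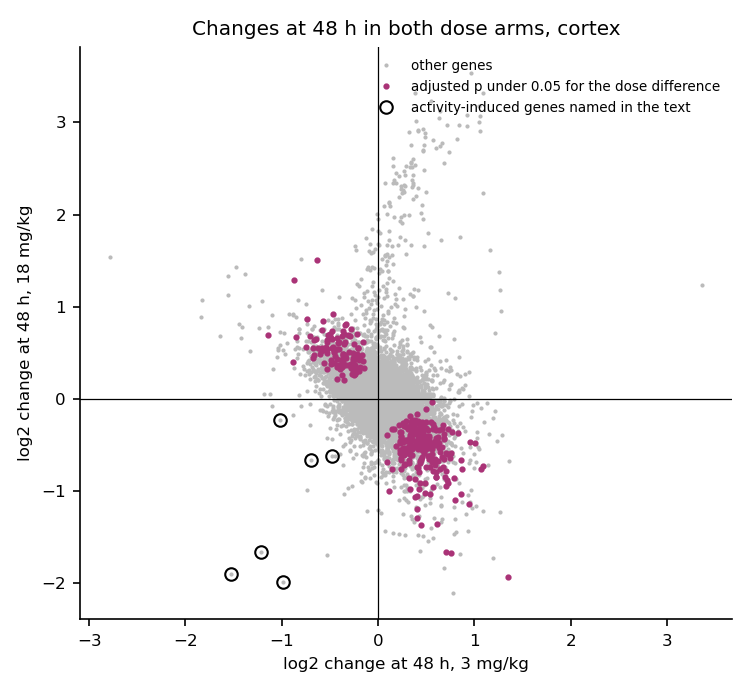
Log2 difference from 0 to 48 h at 3 mg/kg (horizontal axis) and 18 mg/kg (vertical axis) for 14217 genes, with the 345 genes whose difference between the arms passed (adjusted p under 0.05) in purple and 6 activity-induced genes ringed. The purple genes lie in the upper left and lower right, while Egr1, Egr2, Arc, Fos, Ier5 and Nr4a3 lie below 0 on both axes.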

How the data were processed

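Transcripts were measured on 48 arrays in 16 groups of 3 (2 tissues, 2 doses, 4 times), grouped by their labels. The authors deposited log2 expression values per probe set, made with RMA and Partek per the submitters' processing notes, which give no version. RMA corrects background, equalises the distributions of the arrays and summarises probes, so a shift shared by most transcripts would be reduced. The values were used as deposited, and array means were alike. Of 31099 probe sets, 57 control sets were left out and 31042 tested. The platform annotation paired 20826 of them with a single symbol, 436 with several and 9780 with none, and 20758 symbols were updated through gene identifiers.

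The 24 cortex arrays were fitted in limma 3.58.1 (R 4.3.3) with 8 group means, moderated variances, two-sided tests and Benjamini-Hochberg adjustment over all 31042 probe sets, with 0.05 as the threshold. The number of arrays limits precision. On simulated data for 200 changed probe sets among 31042, the comparison of 48 with 0 h recovered 86% of differences of 1 and 99% of differences of 2 on the log2 scale. For the difference between dose arms the shares were 69% and 95%. Among the unchanged probe sets, 9 and 8 passed falsely in the 2 comparisons. The simulated noise was drawn independently for each array and probe set. It held no differences shared across an array, such as those in RNA integrity or liver transcripts. Recovery in the real arrays was therefore not measured.

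A gene is represented by its brightest probe set with a single symbol. Named are the 12 highest and 12 lowest genes among those with a mean of at least 6, an unadjusted p under 0.05 and no overlap, the 3 members of each of 28 lists with the smallest p, a fixed set of genes, and up to 10 genes with the smallest p in the other contrasts; only some are printed. The members and lists were chosen with earlier results of these data known. Gene lists were described by counts and medians, with no test. Promoters came from RefSeq (GRCr8). The labels do not say that equal replicate numbers share an animal, and deviations of equally numbered arrays correlated at -0.10, -0.10 and -0.22, so arrays were not paired. Alternatives covered scaling, dim probe sets, covariates for RNA integrity and liver transcripts, array weights and single arrays.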

Additional observations from a re-analysis of the deposited data

Results flagged for a closer look

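The genes here differed between the dose arms in their 48 h difference, and each value is the log2 difference at 18 mg/kg minus that at 3 mg/kg with its adjusted p from limma. They share the limits given for the 529 probe sets, of which 0 passed with a gap covariate.

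Higher at the high dose relative to the low were the GABA type B subunit Gabbr2 (1.09, adjusted p = 0.042), the kainate subunit Grik1 (1.03, adjusted p = 0.044), the channel subunits Scn2a (0.96, adjusted p = 0.014), Scn2b (1.53, adjusted p = 0.040) and Kcnq5 (0.63, adjusted p = 0.043), the endothelial receptor Tie1 (1.18, adjusted p = 0.041) and the deubiquitinase Usp27x (1.83, adjusted p = 0.031). For Gabra5 every 48 h array was below every 0 h array at 3 mg/kg and above at 18 mg/kg, but its difference of 0.49 did not pass (adjusted p = 0.092).

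Lower at the high dose relative to the low were the striatal cyclase Adcy5 (-1.65, adjusted p = 0.031), the microglial genes Tyrobp (-0.63, adjusted p = 0.029), C1qc (-0.88, adjusted p = 0.028) and C1qa (-1.29, adjusted p = 0.044), and the endothelial gene Pecam1 (-0.57, adjusted p = 0.037). The ribosomal genes Rps15 (-1.09, adjusted p = 0.035) and Rpl37a (-0.60, adjusted p = 0.043), the complex I genes Ndufv3 (-0.90, adjusted p = 0.031), Ndufa7 (-1.05, adjusted p = 0.030) and Ndufa2 (-0.95, adjusted p = 0.031) and the proteasome gene Psmb3 (-0.71, adjusted p = 0.035) were lower too. The same held for Gstm4 (-0.96, adjusted p = 0.028), Atg7 (-0.99, adjusted p = 0.022), the mitochondrial genes Mrpl57 (-0.91, adjusted p = 0.020) and Micos13 (-1.45, adjusted p = 0.022), and Scand1 (-3.27, adjusted p = 0.033).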

How the results depend on the processing

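The count of 0 probe sets for 48 against 0 h stayed at 0 in 16 of 21 alternatives, the replicate block among them (0). It was 3 with the contrasted arrays alone, 5796 with array weights, 5252 with gene-by-gene weights (added after the data were seen, because the default method stopped before convergence), and 2 among arrays with an actin gap of at most 3, which leaves replicate 3 as the only 0 h array. Leaving out single arrays gave 0 to 4. For the difference between the dose arms, 529 became 214 with the replicate block, 1032 for probe sets with a mean of at least 6, 0 with the contrasted arrays alone, 0 with the actin gap, 0 with the GAPDH gap, 10454 with array weights and 9927 with gene-by-gene weights. Leaving out single arrays gave 0 to 4239. For 48 h against 4 and 24 h, the count of 0 became 2 with the contrasted arrays alone and 1 with array weights, and it was 0 to 0 with single arrays left out and 0 with the replicate block. The causes were not tested.

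Of 1318 values for named genes, 53 passed the threshold in an alternative with their sign kept, 16 changed sign and 1249 did neither. All of the 53 came from the array weights except Car3, which passed with the contrasted arrays alone. With single arrays left out, Bdnf ran from -0.17 to 0.05, Alb from -0.16 to 2.20 and Sgk1 from -0.26 to 0.04. Bdnf was 0.05 with the actin gap, 0.13 with the GAPDH gap and 0.07 among arrays with an actin gap of at most 3. Among those arrays Gad1 was 0.10, Slc17a7 was -0.23 and Sgk1 was 0.23. Sgk1 was also 0.01 with the GAPDH gap, 0.07 against the 0 h arrays of both arms and 0.23 against those of the 18 mg/kg arm. Against the latter Alb was -0.55 and Penk -0.10.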

Other observations

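Among genes that no list held, Micos13, a subunit of the complex that shapes the inner mitochondrial membrane, read 10.56, 9.95 and 10.69 at 0 h and 10.94, 11.08 and 10.98 at 48 h after 3 mg/kg. The difference was 0.60 (SE 0.16, adjusted p = 0.28 in limma), and the 48 h arrays were nearly equal. In the 18 mg/kg arm its difference was -0.85, with an adjusted p of 0.062.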
